A study of Mus musculus with 16 samples.

Results

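The TRAV11 family holds TRAV11 and its copies TRAV11D and TRAV11N, the segment called Va14 in the older naming. Its members were all CDR3 nucleotide sequences whose first listed V hit was 1 of these 3 segments, in the 8 libraries of CD8 T cells that were not selected on Va3.2. The rule found 414 of 78671 sequences. They carried 4582 of 815759 reads (0.562%), and the family ranked 34 of 55 V groups by reads, where a V group joins a segment with its D and N copies. TRAV11D was listed first in 187 sequences with 3596 reads, TRAV11 in 216 with 930 reads and TRAV11N in 11 with 56 reads. In all 216 sequences that listed TRAV11 first, another copy had the same score, and no family sequence had a hit in another V group of equal score. In the GENCODE M21 transcripts of GRCm38, Trav11 and Trav11d had 0 mismatches over 342 bases and Trav11n had 8 mismatches to either, so the copies cannot be told apart with confidence and are described together.

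TCRα cDNA came from Themis+/+ Foxp3-GFP and Themis-/- Foxp3-GFP mice on a C57BL/6 background, from single positive CD8 thymocytes (thymus) and from TCRab+ CD8 T cells of lymph nodes (LN). Each of the 4 groups had 2 libraries, and no source used here gives the age of the mice. The sources differ on what a library holds: the design text ties the 2 data sets of a group to single mice, while the sorting methods describe lymph nodes pooled from several mice of a genotype. The p-values therefore measure the spread between libraries, whether these are single mice, pools or technical repeats. All mice carried the Foxp3-GFP reporter, and Themis was deleted in the germline, so thymus and periphery both lacked it. The libraries held 57455 to 146191 reads in 4357 to 16670 CDR3 nucleotide sequences. TCRα reads can test neither the genotype label nor the CD8 gate. Reads were not tagged as single molecules, so more cells with a chain and more RNA per cell cannot be told apart, and intervals from counts cover counting error only.

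A TCRα chain is made by joining 1 V segment to 1 J segment, with bases trimmed and added at the junction, which falls in CDR3, the loop that faces the ligand. In most V segments the junction differs from cell to cell. The mouse invariant NKT cell is the exception: its α chain joins TRAV11 to TRAJ18 with a fixed CDR3 of 15 residues, and it sees lipids on CD1d rather than peptides on classical MHC. Most mouse invariant NKT cells are CD4+ or carry neither coreceptor, and CD8 is rare on them. Themis is a T cell protein that sets the signal a thymocyte needs to pass selection.

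The germline ends and the junctions that carried the TRAJ18 finding were as follows. Trav11 lies at chr14:53519303-53519859, Trav11d at chr14:52824357-52824912 and Trav11n at chr14:53135122-53135678, and Traj18 lies at chr14:54200777-54200842, all on the plus strand of GRCm38. Trav11n is annotated as a pseudogene. The first line below is the 3′ end of the Trav11 exon from the CDR3 cysteine codon on, and in the second, the whole Traj18 segment, capitals mark the part that can enter CDR3. In the 4 versions that follow, capitals mark a base that continues neither germline end. All 4 translate to the same 15 residues and differ only in the last base of codon 4, a glycine codon.
Trav11 3′ end: tgtgtggtgggcg
Traj18: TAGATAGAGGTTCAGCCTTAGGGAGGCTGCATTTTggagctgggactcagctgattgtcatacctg
version 1: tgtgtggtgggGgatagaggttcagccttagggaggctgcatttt
version 2: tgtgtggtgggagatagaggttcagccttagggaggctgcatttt
version 3: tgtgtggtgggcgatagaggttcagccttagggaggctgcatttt
version 4: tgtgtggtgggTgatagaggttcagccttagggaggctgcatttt

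Many deposited sequences were near copies of others. Substitutions against the germline J segment were found in 59.2% of family sequences (40.2% of family reads), in 54.0% of the other sequences of the same libraries and in 9.47% of the sequences of the Va3.2-sorted libraries. Of the substitutions in family sequences, 73.0% were T to G and 91.2% fell in the last 10 bases of CDR3. Version 1 in Themis-/- thymus replicate 1 is an example, with the substituted bases in capitals and positions counted from 1 at the first base of CDR3. It had 161 reads with no substitution, 68 with T42G and 15 with G39T.
no substitution: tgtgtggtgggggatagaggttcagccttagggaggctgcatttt
T42G: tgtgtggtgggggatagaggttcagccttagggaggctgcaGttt
G39T: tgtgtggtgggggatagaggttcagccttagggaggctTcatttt
Read shares sum over such copies, but counts of sequences rise with them. J-corrected clones are therefore given beside them, in which the germline base was put back at each J substitution and equal sequences were summed. The family then had 202 clones in place of 414 sequences, with 43 and 22 in Themis+/+ thymus, 33 and 43 in Themis-/- thymus, 26 and 14 in Themis+/+ LN, and 8 and 13 in Themis-/- LN.

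The family as a whole was a small part of every library, and no comparison of groups passed the test. It took 0.459% and 0.517% of reads in Themis+/+ thymus (mean 0.488% ± 0.0410, SD, n = 2) and 0.833% and 0.792% in Themis-/- thymus (0.813% ± 0.0290, n = 2). It took 0.328% and 0.298% in Themis+/+ LN (0.313% ± 0.0217, n = 2). In Themis-/- LN replicate 1 was the lowest of the 8 libraries at 0.247% and replicate 2 was near the Themis-/- thymus at 0.763% (0.505% ± 0.365, n = 2). The 2 Themis-/- thymus libraries both lay above the 2 Themis+/+ ones, while in LN the Themis-/- libraries lay on both sides of the Themis+/+ ones.

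**Figure D1:**
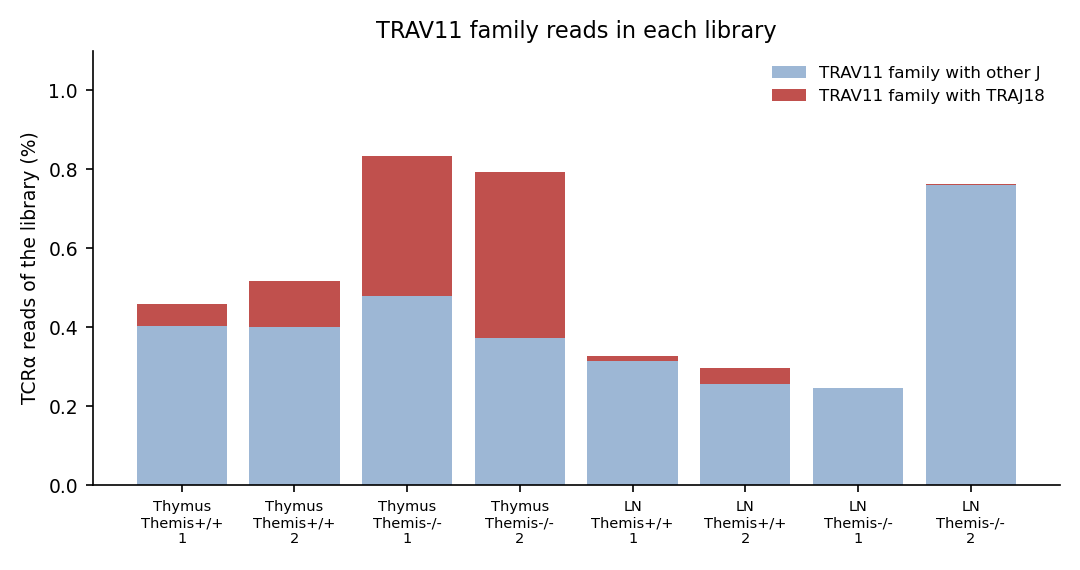
Each bar is 1 library and its height is the share of the library's TCRα reads (%) held by the TRAV11 family, in red for reads joined to TRAJ18 and in blue for all other J segments. The red part is largest in the 2 Themis-/- thymus libraries and is absent or nearly so in the 2 Themis-/- LN libraries, and the blue part is highest in Themis-/- LN replicate 2.

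In edgeR's quasi-likelihood test over 52 V groups, TRAV11 was called in none of the 7 comparisons at an adjusted p of 0.05. On simulated counts, set up as Themis-/- against Themis+/+ thymus, this fit recovered 2 of 10 changes of log2 size 1. It recovered 10 of 10 of size 2 and called 1 unchanged V group, so a change the size of those below could be missed. Themis-/- against Themis+/+ gave a log2 fold change of 0.72 ± 0.67 (SE) in thymus (adjusted p = 0.844) and 0.65 in LN (adjusted p = 0.698). LN against thymus gave -0.61 in Themis+/+ and -0.67 in Themis-/-. Over both tissues the genotypes differed by 0.68 (adjusted p = 0.400), and over both genotypes LN differed from thymus by -0.64 (adjusted p = 0.619). The genotype difference in LN minus that in thymus was -0.06 (adjusted p = 0.988). Of the V groups tested, 3.85% were called between genotypes in LN, between LN and thymus in Themis-/- mice and between genotypes over both tissues, and 0% in the other 4 comparisons. The LN value rested on 1 library: it was -0.19 without Themis-/- LN replicate 2 and 1.24 without Themis-/- LN replicate 1.

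What the family is joined to differed far more than how much of it there was. TRAJ18 took 12.04% and 22.4% of family reads in Themis+/+ thymus, 42.4% and 52.9% in Themis-/- thymus, 3.88% and 14.04% in Themis+/+ LN, and 0% and 0.486% in Themis-/- LN. Among reads of all other V segments the TRAJ18 share ran only from 1.29% to 2.54%. The family was above the other V segments in 6 of 8 libraries, the exceptions being the 2 Themis-/- LN libraries, with a mean of 18.5% ± 19.7 (SD, n = 8) against 1.97% ± 0.465 (exact sign-flip permutation test over the 8 libraries, two-sided, p = 0.0391). The call did not survive leaving out any 1 of the 4 thymus libraries or of the 2 Themis+/+ LN libraries (exact p = 0.0625 to 0.0781), where the mean difference still ran from 11.7 to 18.5 percentage points. Among the V groups with at least 50 sequences, TRAV11 ranked 1 in TRAJ18 share of reads at 26.8%, and the next, TRAV2, stood at 6.60%. Counted by J-corrected clones, each clone once, the mean TRAJ18 share was 8.56% against 1.84% and the family was higher in 7 of 8 libraries (exact p = 0.0156).

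**Figure D2:**
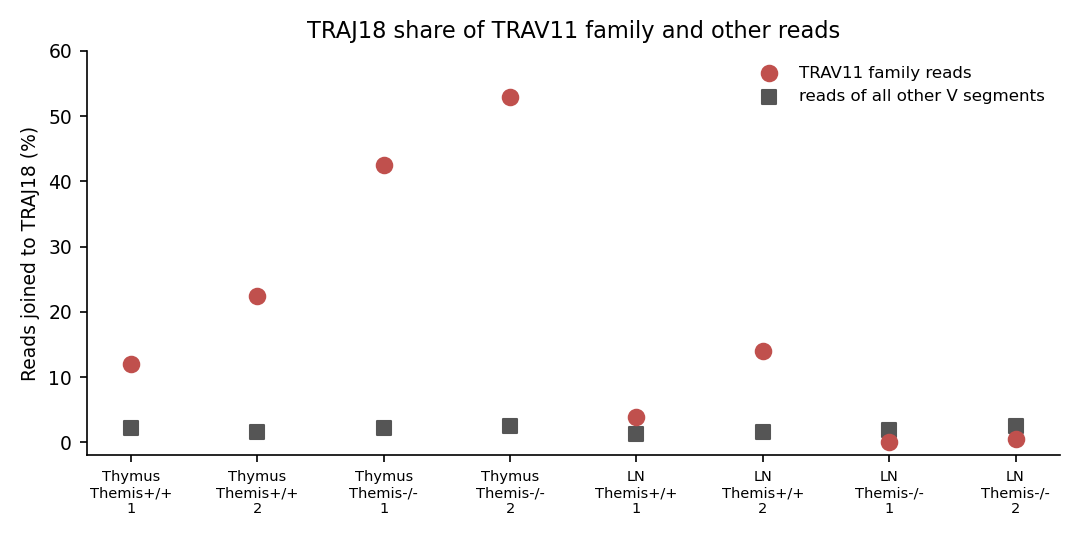
The vertical axis is the share of reads joined to TRAJ18 (%) and each position on the horizontal axis is 1 library, with red circles for TRAV11 family reads and grey squares for reads of all other V segments. The red circles run from 0% to 52.9% and are highest in the 2 Themis-/- thymus libraries, while the grey squares stay between 1.29% and 2.54%.

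As reads in 1000000 of the whole library, TRAV11 joined to TRAJ18 stood at 553 and 1158 in Themis+/+ thymus and at 3536 and 4189 in Themis-/- thymus. It stood at 128 and 418 in Themis+/+ LN, and at 0 and 37.1 in Themis-/- LN, from 0 and 3 reads. A count of 0 in Themis-/- LN replicate 1 allows up to 44.98, taken as 3 counts. By reads, every thymus library was above every LN library, the Themis-/- libraries were the highest in thymus and the lowest in LN, and no 2 groups overlapped. These reads came from few J-corrected clones, 4 and 2 in Themis+/+ thymus and 5 and 7 in Themis-/- thymus. In LN there were 1 and 1 in Themis+/+ and 0 and 1 in Themis-/-. As a share of family clones, TRAJ18 stood at 3.85% and 7.14% in Themis+/+ LN and at 0% and 7.69% in Themis-/- LN, so by clones the LN groups overlapped. Of the 53 rows of V groups, 17% had both Themis-/- thymus libraries above both Themis+/+ ones, 22.6% had both Themis-/- LN libraries below, 18.9% had both LN libraries of Themis+/+ mice below both thymus libraries, and 26.4% did so in Themis-/- mice, so such an order of 2 against 2 was common.

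The pooled reads give the size of these differences with the counting error of reads, not of cells or molecules. In Themis-/- mice the thymus held 1002 TRAV11-TRAJ18 reads of 261957 and LN held 3 of 147547, a ratio of 188 with an exact 95% interval of 64.2 to 914. In Themis+/+ mice the thymus held 183 of 223317 and LN 40 of 182938, a ratio of 3.75 (2.65 to 5.42). Between genotypes the thymus ratio was 4.67 (3.98 to 5.49) in favour of Themis-/-, and the LN ratio was 10.8 (3.42 to 54.3) in favour of Themis+/+. The intervals treat reads as independent draws, although the reads are untagged PCR copies of the few J-corrected clones given above. They also leave out the spread between libraries, and the 2 Themis+/+ libraries of each tissue differed from each other by more than 2 times.

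To test this across libraries, TRAV11 was split into a row with TRAJ18 and a row with all other J segments in the V group fit, a step chosen after the data were seen. The TRAJ18 row was called lower in LN than in thymus in Themis-/- mice (log2 fold change -7.49 ± 1.85, SE, edgeR adjusted p = 0.00395, where 5.66% of rows were called and 3.77% called lower) and over both genotypes (-4.58 ± 1.15, adjusted p = 0.00471, where 1.89% were called). In Themis+/+ mice alone LN against thymus was not called (-1.66 ± 1.37, SE, edgeR adjusted p = 0.947, where 0% of rows were called). The value over both genotypes is the mean of the 2 genotype contrasts, so it does not show a drop in each. The fitted fold in Themis-/- mice rests on the 3 reads of LN and on a prior count. The fold over both genotypes also uses the 40 reads of Themis+/+ LN, and the counted ratios above give the size in reads only. The call in Themis-/- mice was lost without Themis-/- LN replicate 1 (adjusted p = 0.0704), Themis-/- thymus replicate 1 (0.0754) or Themis-/- thymus replicate 2 (0.149). The call over both genotypes was lost without either Themis+/+ LN library (0.122 and 0.0754), without Themis-/- LN replicate 1 (0.0710) and without either Themis-/- thymus library (0.120 and 0.182). The difference between genotypes was called neither in thymus (2.16 ± 1.34, adjusted p = 0.713) nor in LN (-3.68 ± 1.77, adjusted p = 0.233), where 0% and 3.77% of rows were called. The genotype difference in LN minus that in thymus was -5.84 ± 2.22 with an unadjusted p of 0.00906 and an adjusted p of 0.240. Between single samples of 2 against 2 an exact permutation test cannot go below p = 0.333, and the exact test of the TRAJ18 share of family reads in LN against thymus, within genotype, gave p = 0.111 for 4.60% against 32.4% (n = 4 and 4), where 0.0556 is the lowest value possible.

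With TRAJ18 set aside, no comparison of the family passed the test. It took 0.404% and 0.401% of reads in Themis+/+ thymus, 0.480% and 0.373% in Themis-/- thymus, 0.316% and 0.256% in Themis+/+ LN, and 0.247% and 0.759% in Themis-/- LN. The last value stood above the other 7, so LN libraries lay on both sides of the 4 thymus libraries. Over both genotypes LN differed from thymus by a log2 fold of -0.11 ± 0.53 (SE, edgeR adjusted p = 0.920). In thymus the non-TRAJ18 row differed between genotypes by a log2 fold of 0.06 ± 0.75, and it was called in none of the 7 comparisons.

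Counted by reads, the TRAV11-TRAJ18 junctions were mostly 1 protein loop written in several ways. J correction left 14 distinct nucleotide sequences, of which 10 coded for 15 residues. The 4 versions printed above, which translate alike, held 1040 of the 1228 TRAV11-TRAJ18 reads (84.7%). By distinct sequence they were 4 of 14, and most of their reads were from Themis-/- thymus. Version 1 had 100 reads in Themis+/+ thymus replicate 2 and 252 in Themis-/- thymus replicate 1. Version 2 had 41 and 242 reads in the 2 Themis-/- thymus libraries and 16 in Themis+/+ LN replicate 1. Version 3 had 62 reads in Themis+/+ thymus replicate 1 and 68 and 162 in the 2 Themis-/- thymus libraries. Version 4 had 80 and 14 reads in the 2 Themis-/- thymus libraries, and it was the source of the 3 reads in Themis-/- LN replicate 2. Each library of Themis+/+ thymus thus held 1 version, while the Themis-/- thymus libraries held 4 and 3. The 4 versions together had 62 and 100 reads in Themis+/+ thymus against 441 and 418 in Themis-/- thymus. The number of versions was not compared at equal reads.

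**Figure D3:**
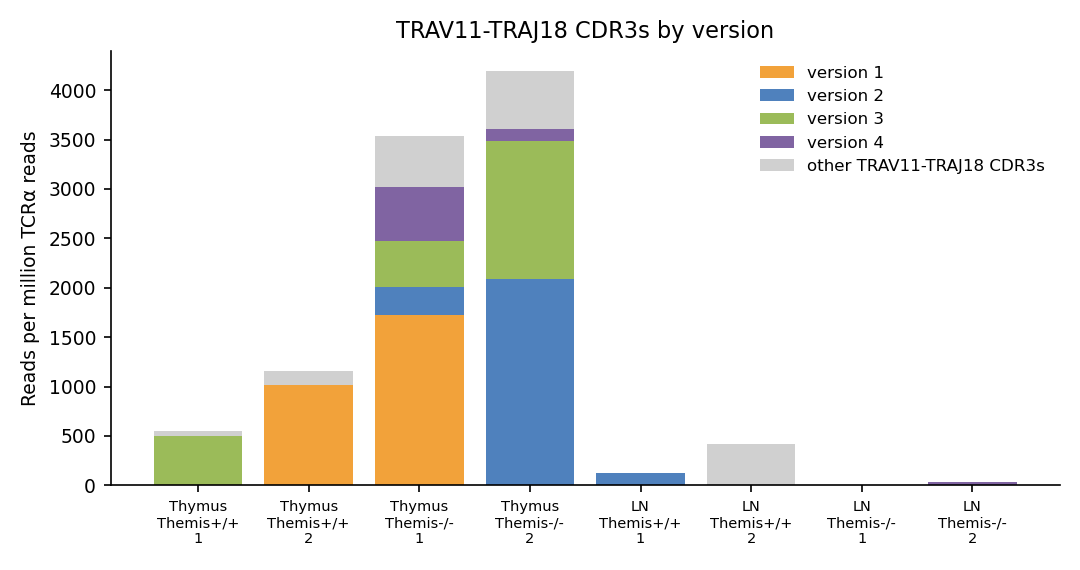
Bars are libraries and the height is TRAV11-TRAJ18 reads in 1000000 TCRα reads, stacked by the 4 nucleotide versions of the common 15-residue CDR3 in colour and all other TRAV11-TRAJ18 CDR3s in grey. The Themis-/- thymus bars reach 3536 and 4189 and stack 4 and 3 versions, and the other 6 libraries hold at most 1.

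In versions 2 and 3 every base could be read from a germline end, with 11 bases from Trav11 and 34 from Traj18 in version 2, and in versions 1 and 4 only 1 base could not. The shared loop stood at 36.2% and 45.6% of family reads in Themis-/- thymus and at 10.8% and 19.6% in Themis+/+ thymus. In Themis+/+ LN it stood at 3.88% and 0%. The 24 TRAV11-TRAJ18 reads of Themis+/+ LN replicate 2 were 1 clone of 16 residues with 4 bases of neither germline end, so that library held the V-J pair but not the invariant CDR3. Outside the shared loop, the TRAJ18 clones with the most reads were a 15-residue clone of 76 reads in Themis-/- thymus replicate 1, a 15-residue clone of 37 reads and a 13-residue clone of 28 reads in Themis-/- thymus replicate 2, and this clone of 24 reads. They are shown to give the range of junctions around the invariant one, with capitals as before.
76 reads: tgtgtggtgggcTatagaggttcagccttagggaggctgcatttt
37 reads: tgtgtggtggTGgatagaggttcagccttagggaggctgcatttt
28 reads: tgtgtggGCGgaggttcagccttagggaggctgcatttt
24 reads: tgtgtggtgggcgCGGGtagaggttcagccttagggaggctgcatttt
None of the 4 versions was joined to another V group in these libraries. All 4 begin with at least 11 bases of the Trav11 end, so a call to another V group was unlikely. The Va3.2-sorted libraries, selected on another V segment, had 0 of their 155773 reads in these versions, which allows up to 0.00193%. Neither absence tests whether the loop is particular to the family.

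The V-J pair that marks MAIT cells, another unconventional T cell that reads vitamin metabolites on MR1, was set beside it. TRAV1 joined to TRAJ33 had 39 and 5 reads in Themis+/+ thymus, 62 and 0 in Themis-/- thymus, 50 and 2 in Themis+/+ LN, and 5 and 2 in Themis-/- LN. In each of the first 3 groups nearly all reads came from 1 of the 2 libraries. TRAJ33 took 0% to 23.3% of TRAV1 reads and 1.76% to 3.31% of the reads of other V segments. TRAV1 itself was 1.37% and 1.03% of reads in Themis-/- thymus and 0.171% to 0.679% in the other 6 libraries.

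Across all J segments the family used 33 of the 44 seen in these libraries, and its choice was uneven. By J-corrected clones TRAJ27 led with 30 of 202 clones (14.9%) against 2.71% in the other V segments, followed by TRAJ18 with 21 (10.4% against 1.83%), and the J segments with at least 10 clones are given here, chosen after their values were seen. TRAJ26 had 14 clones (6.93% against 4.88%), TRAJ32 had 13 (6.44% against 2.13%), TRAJ39 had 12 (5.94% against 2.05%), TRAJ17 had 11 (5.45% against 2.26%) and TRAJ38 had 10 (4.95% against 0.872%). TRAJ27 was found in 7 of 8 libraries, with 3 and 0 clones in Themis+/+ thymus, 7 and 9 in Themis-/- thymus, 5 and 3 in Themis+/+ LN, and 1 and 2 in Themis-/- LN. Its 1 clone in Themis-/- LN replicate 1 held 29.7% of family reads, in a library where no family read used TRAJ18. At the other end, 11 J segments had no family sequence at all, which allows up to 0.725% of family sequences or 1.49% of J-corrected clones each. Of these 11, TRAJ58 (1.24%), TRAJ44 (1.13%), TRAJ5 (0.639%), TRAJ2 (0.617%) and TRDJ1 (0.009%) stood below that clone limit with other V segments. Their absence therefore cannot show an uneven choice. Also among the 11, TRAJ23 took 5.13%, TRAJ12 4.86% and TRAJ30 4.34% of the sequences of other V segments. TRAJ22, the most used of all J segments with other V segments (6.26% of clones), had 1 family clone.

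**Figure D4:**
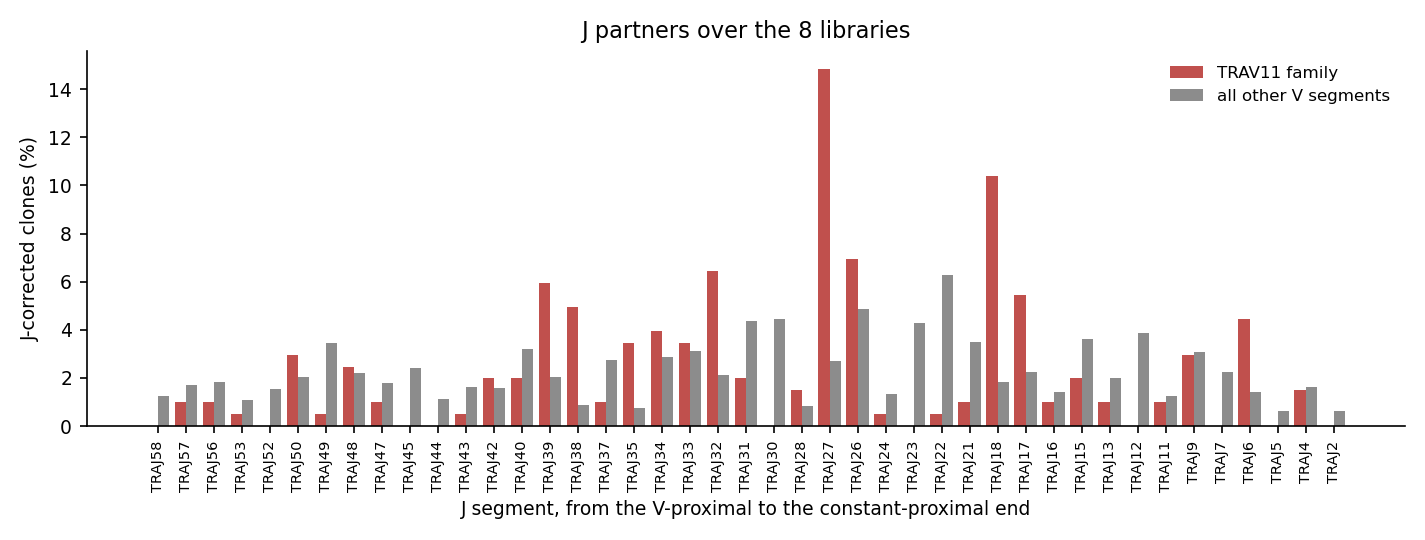
Bars give, for each TRAJ segment tested, in locus order from the V-proximal to the constant-proximal end, the share (%) of J-corrected clones over the 8 libraries, in red for the TRAV11 family and in grey for all other V segments. Red bars stand above grey ones most clearly at TRAJ27 (14.9%) and TRAJ18 (10.4%), and red is missing at TRAJ30, TRAJ23 and TRAJ12 among others.

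The number of J segments called depended on the scaling of the sparse family columns. With the planned scaling (TMM, edgeR on distinct sequences, library as a block), 27 of 43 J segments (62.8%) were lower in the family and 0 higher, and TRAJ18 was not called (log2 fold change 0.83 ± 0.66, adjusted p = 0.267). With plain library size, chosen after those calls were seen, 11 segments (25.6%) were lower and 5 (11.6%) higher. TRAJ18 was then called (2.23 ± 0.60, adjusted p = 0.00204), together with TRAJ27, TRAJ38, TRAJ35 and TRAJ32. These 4, named here after their values were seen, were above the other V segments in 7, 6, 5 and 6 of 8 libraries. On simulated counts the TMM fit called 11 unchanged J segments. All 11 segments lower with library size were also lower with TMM, an overlap that adds little because TMM called 27 of 43 lower. The 5 with the smallest adjusted p that were lower in all 8 libraries were TRAJ23, TRAJ12, TRAJ22, TRAJ30 and TRAJ21, and the first 4 of them stayed called in J-corrected clones scaled by library size while TRAJ21 did not (adjusted p = 0.0793). In those clones 8 segments (18.6%) were called lower and 8 (18.6%) higher. Grouped into 6 blocks along the locus, no block of J segments differed between the family and other V segments by the exact sign-flip test (lowest adjusted p = 0.750, n = 8 libraries, for TRAJ11 to TRAJ18 at 27.3% of family reads against 15.7%).

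CDR3s of the family were longer and more hydrophobic than those of other V segments. By reads, mean CDR3 length was 42.5 bases ± 1.82 (SD, n = 8) against 40.6 ± 0.164, higher in 6 of 8 libraries (exact p = 0.0312, adjusted over 5 features 0.0312). Reads of 45 bases, the length of the invariant loop, made up 44.7% of family reads and 15.2% of others, and still 26.4% of family reads without TRAJ18. The share of 39 and 42 bases was 38.4% against 55.6% (higher in 2 of 8 libraries, exact p = 0.0312). Hydropathicity on the Kyte-Doolittle scale, where higher is more hydrophobic, averaged 0.550 ± 0.179 per residue against 0.214 ± 0.0193 and was higher in 8 of 8 libraries (exact p = 0.00781, the lowest possible, adjusted 0.0195). CDR3 as deposited begins at the cysteine codon, so the first residues, fixed by the germline end printed above, enter this value. At least 10 bases of the V end were kept in 96.4% of family sequences. The test therefore cannot separate the choice of V segment from the rest of CDR3, and hydropathicity without the V end was not tested. Net charge averaged 0.833 against 0.442 and was also higher in 8 of 8 libraries (exact p = 0.00781, adjusted 0.0195). Counting each sequence once, only hydropathicity stayed below an adjusted p of 0.05 (0.566 against 0.176, exact test, adjusted p = 0.0391).

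**Figure D5:**
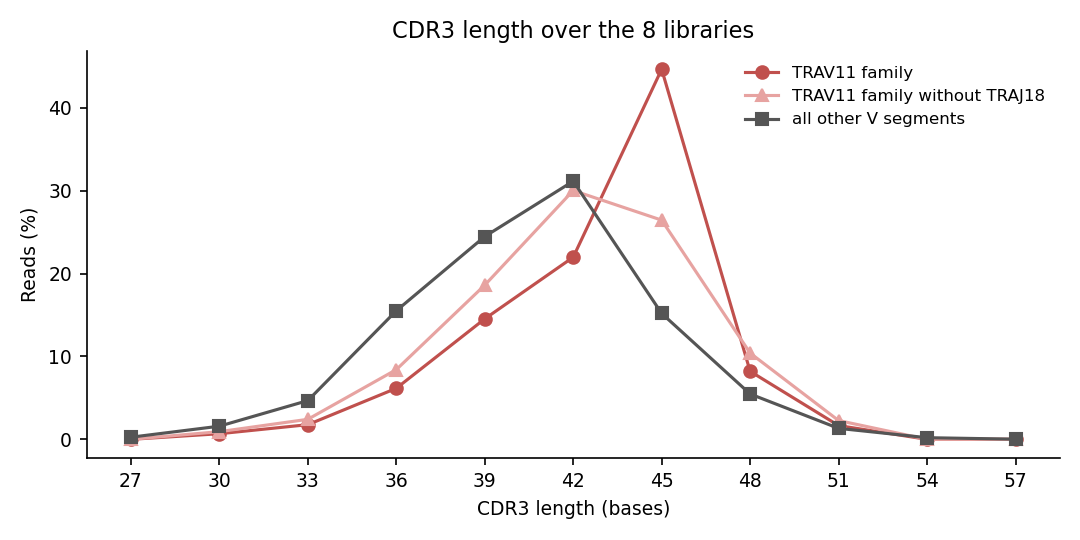
Lines give the share of reads (%) at each in-frame CDR3 length in bases over the 8 libraries, for the TRAV11 family, for the family without TRAJ18 and for all other V segments. The family peaks at 45 bases with 44.7% of its reads, and the other V segments peak at 42 bases with 31.2%.

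Bases of neither germline end averaged 1.35 per family read against 1.92 in other V segments (lower in 7 of 8 libraries, exact p = 0.0156, adjusted 0.0260). Length, the share of 39 and 42 bases and these bases lost their calls when 1 thymus library or Themis-/- LN replicate 2 was left out (exact tests, adjusted p = 0.0521 to 0.0625), and the first 2 also without Themis+/+ LN replicate 2. They were fewer in all 4 Themis-/- libraries, at 1.12 and 0.783 in thymus and 1 and 0.669 in LN, than in any of the 4 Themis+/+ libraries, at 1.48 and 1.96 in thymus and 1.70 and 2.07 in LN. That is the lowest exact p the design allows (0.0556, permuted within tissue, adjusted over 5 features 0.278). The reads of all other V segments had the same order, with 1.73 to 1.897 in the 4 Themis-/- libraries and 1.97 to 2.03 in the 4 Themis+/+ libraries, so it is not particular to the family. Counted per J-corrected clone the order in the family was gone, with 1.89 in Themis-/- and 1.68 in Themis+/+ (exact p = 0.722, n = 4 and 4). No other feature reached that p between genotypes or tissues.

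No measure of clone size set the family apart from the rest of the repertoire beyond the spread between libraries. The median was 3 to 7 reads per deposited sequence across libraries, against 4 to 6 for other V segments (exact p = 0.688, n = 8). The mean was 10.4 ± 3.61 reads against 11.2 ± 2.72 (exact p = 0.656), and single reads made up 16.9% of family sequences against 17.9% (exact p = 0.625). In deposited sequences no clone size measure reached the lowest exact p of 0.0556 between genotypes or between tissues. In J-corrected clones the largest clone held 10.8% and 19.6% of family reads in Themis+/+ thymus, 20.7% and 26.4% in Themis-/- thymus, 14.1% and 22.8% in Themis+/+ LN, and 36.4% and 26.3% in Themis-/- LN. Both Themis-/- libraries were above both Themis+/+ ones in each tissue, which is that lowest exact p (0.0556, n = 4 and 4, adjusted 0.278). The Themis-/- LN libraries held only 8 and 13 family clones. In other V segments mean reads per J-corrected clone were 29.9 and 29.9 in Themis-/- LN against 18.1 and 17.8 in Themis+/+ LN. In thymus they were 22.6 and 17.5 against 12.8 and 17.9. Whether the order is particular to the family was not tested. Single reads made up 10.8% of family CDR3s in LN and 22.1% in thymus when sequences of the same amino acids were joined, with the same exact p of 0.0556 and adjusted p of 0.278. The largest deposited sequence held 7.50% to 20% of family reads, and the 10 largest held 53.4% to 79.4%, highest in Themis-/- LN replicate 1, which had 26 sequences in all.

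The leading family clone was TRAV11-TRAJ18 in all 4 thymus libraries and in none of the 4 LN libraries. After J correction it was version 3 with 62 reads (rank 240 of 10033 clones) and version 1 with 100 reads in Themis+/+ thymus, and version 1 with 252 reads (rank 21 of 6625) and version 2 with 242 reads (rank 9 of 6786) in Themis-/- thymus. In LN the leaders used TRAJ32, TRAJ50, TRAJ15 and TRAJ26, and they had 58 reads and 39 reads in Themis+/+ and 60 reads and 162 reads in Themis-/-. The last, 26.3% of family reads and rank 78 of 2752 in its library, had 0 bases of neither germline end. As deposited, without correction, the most read sequence instead used TRAJ57 in Themis+/+ thymus replicate 1, and TRAJ39 and TRAJ27 in Themis+/+ LN. The 4 LN leaders are printed to show how they differ from the thymic ones after the shared V end.
Themis+/+ LN replicate 1, TRAJ32: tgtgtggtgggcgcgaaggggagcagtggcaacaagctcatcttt
Themis+/+ LN replicate 2, TRAJ50: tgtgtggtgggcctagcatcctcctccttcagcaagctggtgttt
Themis-/- LN replicate 1, TRAJ15: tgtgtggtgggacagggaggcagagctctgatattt
Themis-/- LN replicate 2, TRAJ26: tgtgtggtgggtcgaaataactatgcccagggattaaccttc

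Apart from the invariant loop, few family CDR3s were found in more than 1 library. Of 322 amino acid CDR3s, 14 (4.35%) were found in 2 or more libraries, against 18.2% of 47552 in all other V segments, a pool in which different V segments may share a CDR3 and which is sampled far more deeply. In J-corrected clones 1 loop was found in 6 libraries and 13 others in 2 libraries each. The loop in 6 libraries was the TRAJ18 loop of versions 1 to 4, present in every thymus library, in Themis+/+ LN replicate 1 and in Themis-/- LN replicate 2. The next by share of family reads was a TRAJ27 loop of 14 residues with 49 and 51 reads in the 2 Themis-/- LN libraries. A TRAJ17 loop of 15 residues had 22 and 80 reads in the 2 Themis-/- thymus libraries. By nucleotide sequence the most widely shared were found in 3 libraries.

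The V groups whose log2 CPM followed that of TRAV11 most closely over the 8 libraries were TRAV12-3 (Pearson r = 0.816), TRAV13-3 (0.810) and TRAV6-1 (0.756) of 51 compared, given as a description since the groups share their libraries and depth. TRAV6-1, for example, had its highest shares in Themis-/- LN replicate 2 and Themis-/- thymus replicate 1, at 0.936% and 0.633% of reads.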

How the data were processed

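The authors made TCRα cDNA by template switching, amplified it in 2 rounds of PCR and ran it on a MiSeq, and MiXCR gave the clonotypes. No source used here gives its version or settings, and the submitters' processing notes name CASAVA 1.4 and mm9. The authors deposited for each CDR3 nucleotide sequence a whole-number read count, without normalization, and its fraction of the library, which equals count over total. There are no molecular identifiers. The deposited V hits chose the members, and D and N copies were merged.

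V groups with at least 10 reads in 2 libraries were fitted with edgeR 4.0.16 (quasi-likelihood, TMM, 4 group means, Benjamini-Hochberg), and DESeq2 1.42.0 was an alternative. Exact permutation tests were run over libraries. J partners were planned with TMM. Each fit was tested on simulated data. There the V group fit missed most changes of log2 size 1, the TMM fit of J segments made false calls and the library size fit had little power. Library size was added beside TMM after the calls were seen. The split of TRAV11 by J, J-matched reads and J-corrected clones were also added after the data were seen. Members and lists were chosen with earlier results of these data known. The rule for J segments named TRAJ18 and up to 5 in each direction with the smallest adjusted p that moved alike in all 8 libraries. It named 5 lower and 0 higher, and the other J segments were named after their values were seen. Named CDR3s were TRAV11-TRAJ18 ones, each library's largest and the most shared.

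Replicate numbers did not pair libraries. Depth was 57455 to 146191 reads, and the 8 Va3.2-sorted libraries served only as background.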

Additional observations from a re-analysis of the deposited data

Results flagged for a closer look

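By reads, TRAV11 joined to TRAJ18 was ordered in opposite ways between genotypes in the 2 tissues. Both Themis-/- libraries lay above both Themis+/+ libraries in thymus and below them in LN. The LN reads came from 1 and 1 J-corrected clones in Themis+/+ and from 0 and 1 in Themis-/-. The difference of the differences was -5.84 on the log2 scale by edgeR (unadjusted p = 0.00906, adjusted p = 0.240 over 53 rows), so it did not pass the threshold.

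In the Va3.2-sorted libraries, which were selected on another V segment, 1 family sequence with 11 reads was found in 1 of 8 libraries, above the 3 counts taken as the limit of a count of 0. It was not joined to TRAJ18. With 2 libraries per group, single outlying libraries could not be tested.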

How the results depend on the processing

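With 2 libraries a group, 1 library decides many values, and no comparison of 2 groups can pass an exact test. Family usage was called under 0 of 137 alternatives and kept its direction in 130. Counted by distinct sequences it turned to 0.20 for LN against thymus in Themis-/- mice, 0.0029 over both genotypes and 0.39 for the interaction, which was 0.061 in J-matched reads. Leaving out 1 library, it ran from -0.19 to 1.24 between genotypes in LN and from -1.02 to 0.52 for the interaction. The replicate numbers did not pair the libraries, with correlations of deviations from -0.427 to -0.0005. With the replicate block the family values were 0.73 and 0.55 between genotypes in thymus and LN, and TRAJ18 in LN against thymus of Themis-/- mice kept its call (adjusted p = 0.0150). The block left 0 of 2 V group calls between LN and thymus in Themis-/- mice and 1 of 2 between genotypes in LN, and crossed numbers gave 2 calls in each.

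For TRAV11-TRAJ18 in LN against thymus, the log2 difference ran from -11.66 to -6.64 in Themis-/- mice and from -6.63 to -4.16 over both genotypes when 1 library was left out, and J-matched reads gave -4.07 over both, no longer called (adjusted p = 0.0554). DESeq2 called the interaction (-5.94, adjusted p = 0.0309), edgeR did not. The family without TRAJ18, never called, ran from -0.16 to 0.25 between genotypes in thymus, from -0.17 to 1.38 in LN and from -0.028 to 0.72 over both. For LN against thymus it ran from -0.69 to 0.84 in Themis-/- mice and from -0.55 to 0.18 over both genotypes, and for the interaction from -0.29 to 1.32.

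J segments called numbered 27 with TMM, 16 with library size and 16 in J-corrected clones with library size, and 14, 15, 16, 17 or 18 with library size and 1 library left out. The TRAJ18 share of the family exceeded that of other V segments by 11.7 to 19.2 points without 1 library. In LN against thymus it differed by -13.1 points per sequence and -7.79 per J-corrected clone. Of 5 CDR3 features, 5 passed by reads, 1 per sequence or per J-corrected clone, and 2 to 5 without 1 library. J correction turned the differences in median and mean reads per clone to 5.13 and 3.04. Without 1 library the mean ran from -1.59 to 0.352 reads and single reads from -2.26 to 0.220 points. Sharing rose to 7.87% of J-corrected CDR3s. The cause of these changes was not tested.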
